A study of Mus musculus with 6 samples.

Results

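Translation initiation and elongation factors are the proteins that bring the initiator tRNA, the ribosome and the mRNA together and then move the ribosome along the message. The genes were chosen by name. Every listed gene whose symbol begins with Eif and a digit from 1 to 6, or with Eef and 1 or 2, was taken, and the eIF2 kinases (Eif2ak), the eIF4E-binding proteins (Eif4ebp) and pseudogene names were left out. The rule found 59 of the 22248 genes listed. All 59 are protein coding, they lie on 18 chromosomes, and 2 of them are on the X chromosome.

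RNA was measured in bone marrow-derived macrophages (BMDMs), cells grown from mouse bone marrow with macrophage colony-stimulating factor (M-CSF) and kept without further stimulus. The study compared 3 control libraries from Lyz2cre mice with 3 libraries from Cited2 fl/fl:Lyz2cre mice. In the latter, Cre recombinase driven by the myeloid Lyz2 gene deletes floxed Cited2, which encodes a transcriptional co-regulator, so the cells are called CITED2-deficient. Both genotypes are on the C57BL/6 background, both carry 1 Lyz2 Cre allele, and the labels give postnatal week 10 for all of the mice, while the study's methods give a younger age for the mice from which bone marrow was taken. The sources do not say whether each library came from its own animal or culture, so p-values measure the spread between these libraries.

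Initiation begins when eIF2 carries the initiator tRNA to the small ribosomal subunit, on which eIF1, eIF1A, eIF3 and eIF5 sit. The eIF4F proteins join the capped mRNA to this complex, and eIF5B brings in the large subunit at the start codon. In elongation, eEF1A delivers each amino-acyl tRNA and eEF2 moves the ribosome by a codon. Macrophages are known to adjust translation during activation through kinases that act on eIF2 and through mTORC1, which acts on the cap-binding step.

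Many mRNAs of this machinery are known as TOP mRNAs, whose 5′ end is a C followed by a run of pyrimidines that is read by mTORC1-dependent regulators. The starts shown here are those of the 3 genes of the TOP list with an annotated start that holds a tract, since a start with a tract is what defines the class. They were chosen for the tract. Each line gives the first 20 bases of a GENCODE transcript, 5′ to 3′, with the tract in capitals.
Eif3f, chr7:108934417-108934436 of mm10, plus strand: CTCTTTCTCggcaagatggc
Eef1b2, chr1:63177130-63177149, plus strand: CTTTTTTTCCCTCagcgctg
Eef1d, chr15:75909287-75909306, minus strand: CTCTCCTTTgcagtcctgag
The search asked for a C and at least 4 further pyrimidines, so a run of 5, that begins within the first 5 bases. It found such a start in 3 of the 9 genes of the TOP list (33.3%), in 17 of the 59 genes (28.8%) and in 21.7% of the protein-coding genes that passed the FPKM minimum used in the tests. By transcript, a tract was in 9.90% of the coding transcripts of the 59 genes and in 8.62% of those of the genes past the minimum, which is close. The share was 14.8% for the TOP list (4 of 27 transcripts). The tract was in the only coding transcript of Eif3f, in 1 of 2 of Eef1b2 and in 2 of 15 of Eef1d. Annotated starts may miss the start used in these cells, and a match is a description of the letters only.

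FPKM values, fragments per kilobase of transcript scaled to the mapped reads of the library, were compared on a log2(FPKM + 1) scale with limma. Differences are CITED2-deficient minus control, in log2 units, with their standard error (SE). A gene passed at a Benjamini-Hochberg adjusted p below 0.05, over the 11687 genes whose FPKM averaged 1 or more in the 6 libraries. For weakly expressed genes this scale gives a smaller change than the FPKM do. Fragment numbers recovered from the FPKM put the depth at 17289285 to 18952077 fragments in control libraries and at 22583994 to 26100409 in CITED2-deficient libraries. Cited2 itself had an FPKM of 71.7, 79.3 and 75.5 in control libraries and of 9.27, 7.22 and 7.53 in CITED2-deficient libraries, which fits the labels. All 7 macrophage markers were detected, with a summed FPKM of 5319 to 5375 in control and 4951 to 5050 in CITED2-deficient libraries. Most of them passed as lower, while Fcgr1 was 2.80-fold higher and Cd68 did not pass. The control mean was 3.21 times the CITED2-deficient mean for Lyz2 and 1.76 times for Itgam. It was 1.24 times for Csf1r, 1.25 times for Adgre1 and 1.20 times for Mertk. Of 9 markers of granulocyte precursors and neutrophils, 6 were lower and 1, Ltf, was higher. The list summed to 608 to 654 in control and 547 to 661 in CITED2-deficient libraries, and Elane, Mpo, Prtn3 and Ctsg had control means 5.66 to 8.31 times the CITED2-deficient means. Of 8 stromal markers, 7 passed the test as higher, and their summed FPKM was 57.2 to 70.3 in control and 233 to 682 in CITED2-deficient libraries. The highest sum was in CITED2-deficient replicate 1. The megakaryocyte list summed to 314 to 343 in control and 78.4 to 89.7 in CITED2-deficient libraries, almost all of it Pf4, the only 1 of the 4 markers that fell, whereas Ppbp and Itga2b rose (1.85-fold and 1.41-fold). The endothelial list summed to 5.73 to 6.01 and 26.9 to 32.3, most of it Kdr. A list of 5 markers of cycling cells summed to 35.0 to 37.3 in control and 28.0 to 32.5 in CITED2-deficient libraries. Of these, Top2a and Cdk1 passed as lower, and Mki67, Ccnb1 and Birc5 did not pass. The part of these cells in the results below was not tested. In bulk RNA, fewer cells of a type and less RNA per cell cannot be told apart.

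Most of the 59 genes were strongly expressed and moved little in CITED2-deficient BMDMs. Of the 56 genes that could be tested, 5 were higher, 23 were lower and 28 did not pass. The 5 higher genes are 8.93% of those tested, against 16.7% of all genes tested, and the 23 lower genes are 41.1%, against 34.6%. In either direction 51.3% of all genes tested passed. The libraries of the 2 groups did not overlap for 7 translation factors that were higher and 26 that were lower, against 19.0% and 40.9% of all genes tested. The median difference was −0.10 for the translation factors and −0.10 for all genes tested, and 23 of the 56 genes differed by less than 0.1. Eef2k, the kinase that acts on eEF2, stood apart with a fall of 1.36 on the log2 scale.

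The scaling between libraries decides how many small changes count as falls. After median-ratio scaling of the FPKM, the median of all genes tested moved from −0.10 to −0.01, and 10 translation factors were higher and 12 lower, against 22.5% and 22.0% of all genes (44.5% in either direction). The 12 lower genes were all among the 23, and all 5 higher genes were still higher. The adjusted p stayed below 0.05 in the same direction for 15 of the 28 genes, 12 lower and 3 higher, under every alternative setting of the fit that tested them. The lower ones were Eef2k, Eef1b2, Eif3f, Eif1b, Eif4b, Eif4a2, Eef2kmt, Eif3k, Eif3i, Eif4g3, Eef1d and Eif3m, and the higher ones were Eif5b, Eif2s1 and Eif1a.

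**Figure D1:**
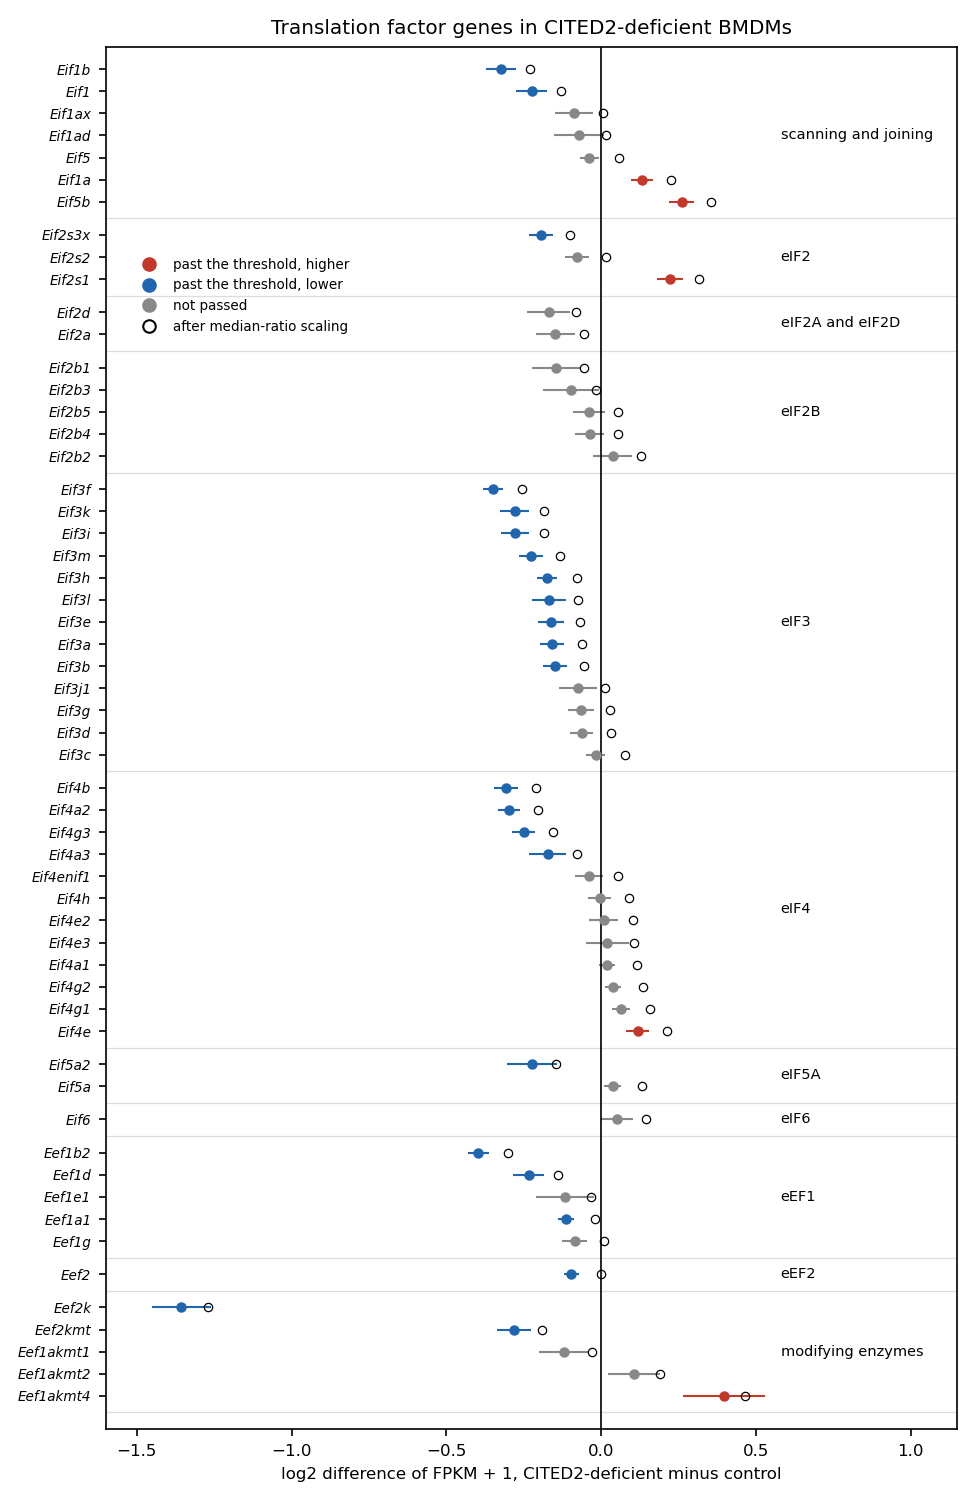
Log2 difference of FPKM + 1 (CITED2-deficient minus control, x axis) for the 56 tested translation factor genes, by complex; filled points are the limma values with their SE, colored by whether they passed, and open circles are the values after median-ratio scaling. Eef2k lies at −1.36 and the other genes between −0.40 and 0.40, and median-ratio scaling moves the points to the right, past zero for 14 genes that include Eef2.

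The genes spanned a wide range of levels. Their median FPKM was 46.6, against 15.1 for all genes tested, and replicates were tight, with a median coefficient of variation of 3.01% in control and 3.18% in CITED2-deficient libraries (5.41% and 5.56% for all genes tested). The most abundant was Eef1a1, the tRNA-delivering GTPase, with an FPKM of 4896, 4943 and 4822 in control and 4550, 4583 and 4410 in CITED2-deficient libraries. It alone made up 42.1% to 43.3% of the summed FPKM of the 59 genes in every library. Eef2, the translocase, followed at 1194, 1211 and 1212 in control and 1153, 1119 and 1113 in CITED2-deficient libraries. For both genes every CITED2-deficient library was below every control library, and Eef1a1 (−0.11, SE 0.03, limma adjusted p = 0.00599) and Eef2 (−0.10, SE 0.03, adjusted p = 0.0112) passed as lower, but after median-ratio scaling the differences were −0.02 (adjusted p = 0.678) and 0.00035 (adjusted p = 0.993).

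The next most abundant were Eif4a1, Eif4g2 and Eif1. Eif4a1, the main RNA helicase of eIF4F, had an FPKM of 627, 645 and 626 in control and 651, 637 and 636 in CITED2-deficient libraries. Eif4g2, an eIF4G-like scaffold without a cap-binding partner, had 464, 468 and 466 in control and 489, 479 and 470 in CITED2-deficient libraries. Eif4a1 overlapped between the groups and Eif4g2 did not, and neither passed the test (differences 0.02 and 0.04). After median-ratio scaling they were at 0.12 and 0.14 and passed as higher. The summed FPKM of all 59 genes was 11373 to 11505 in control and 10482 to 10778 in CITED2-deficient libraries.

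**Figure D2:**
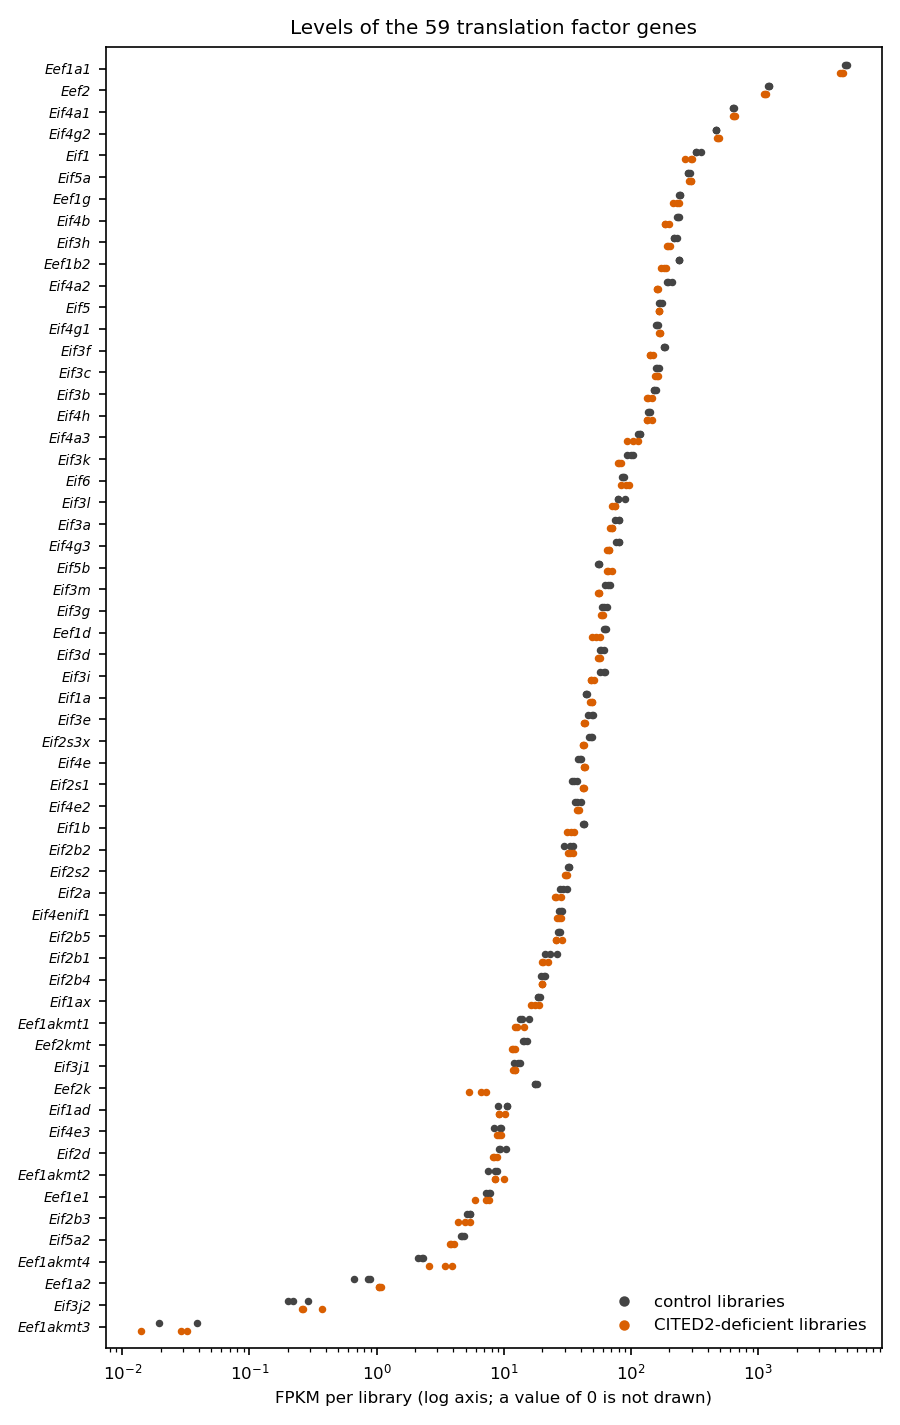
FPKM of the 59 translation factor genes in each library on a log axis, ordered by mean level, with control libraries dark and CITED2-deficient libraries orange. Eef1a1 is highest at 4410 to 4943, and Eef1a2, Eif3j2 and Eef1akmt3 at the bottom have means below 1 and were not tested.

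Eef2k fell most. Eef2k (chr7:120842831-120907450, plus strand, mm10) encodes the calcium and calmodulin-dependent kinase that phosphorylates eEF2 and slows elongation. Its FPKM was 17.6, 17.5 and 18.1 in control libraries and 5.28, 7.24 and 6.55 in CITED2-deficient libraries. The groups did not overlap, and the control mean was 2.79 times the CITED2-deficient mean (17.7 ± 0.366 and 6.36 ± 0.995, SD, n = 3). The fall was 1.36 on the log2 scale (SE 0.10, limma adjusted p = 3.95e-06), and leaving out any library gave −1.44 to −1.25. The ratio of Eef2k to Eef2 FPKM within a library, which no scaling between libraries can change, was 1.47% ± 0.0284 in control and 0.565% ± 0.0968 in CITED2-deficient libraries (SD, n = 3), with no overlap. Gm45047 overlaps Eef2k on the same strand, and reads of the 2 genes may not be told apart where they overlap.

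The other enzymes that modify elongation factors gave 1 higher, 1 lower and 2 genes that did not pass. Of all genes tested, 16.7% were higher and 34.6% lower. Eef2kmt, the methyltransferase of eEF2, fell by 0.28 (SE 0.06, limma adjusted p = 0.00262), from an FPKM of 14.0, 15.1 and 14.5 to one of 11.5, 11.7 and 12.2. Eef1akmt4, a lysine methyltransferase of eEF1A, was at 2.28, 2.32 and 2.11 in control and at 3.88, 2.56 and 3.45 in CITED2-deficient libraries. Its rise of 0.40 was the largest (SE 0.13, limma adjusted p = 0.0318), but it rests on a low level and was lost in 6 of the 16 alternatives that tested it, among them those that left out CITED2-deficient replicate 1 or 3 or any control library. Eef1akmt1 and Eef1akmt2, which methylate other lysines of eEF1A, did not pass (−0.12 and 0.11), and Eef1akmt3 was at 0.0389 or lower in every library and was not tested.

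Among the subunits of eEF1, the exchange factor eEF1B fell and its scaffold did not pass. Eef1b2, the catalytic exchange subunit, had an FPKM of 236, 238 and 239 in control and 182, 172 and 187 in CITED2-deficient libraries. The groups were far apart, and Eef1b2 fell by 0.40 (SE 0.03, limma adjusted p = 1.56e-05), the largest fall after Eef2k. Eef1d, the second exchange subunit, fell by 0.23 (adjusted p = 0.00347). Eef1g, the scaffold, was at 237, 242 and 244 in control and 239, 214 and 229 in CITED2-deficient libraries, so the groups overlapped (−0.08, adjusted p = 0.111, and 0.01 after median-ratio scaling). Eef1e1, a cofactor of the multi-tRNA synthetase complex, did not pass (−0.12). In all, 3 of the 5 tested eEF1 genes were lower (34.6% of all genes tested) and 0 were higher by limma, with 0 higher at an unadjusted p below 0.05 and 0 by limma-voom. After median-ratio scaling 2 of the 5 were lower (22.0% of all genes). Eef1a2, the form of eEF1A known from muscle and neurons, was at 0.658 to 0.889 in control and 1.04 to 1.08 in CITED2-deficient libraries and was not tested.

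**Figure D3:**
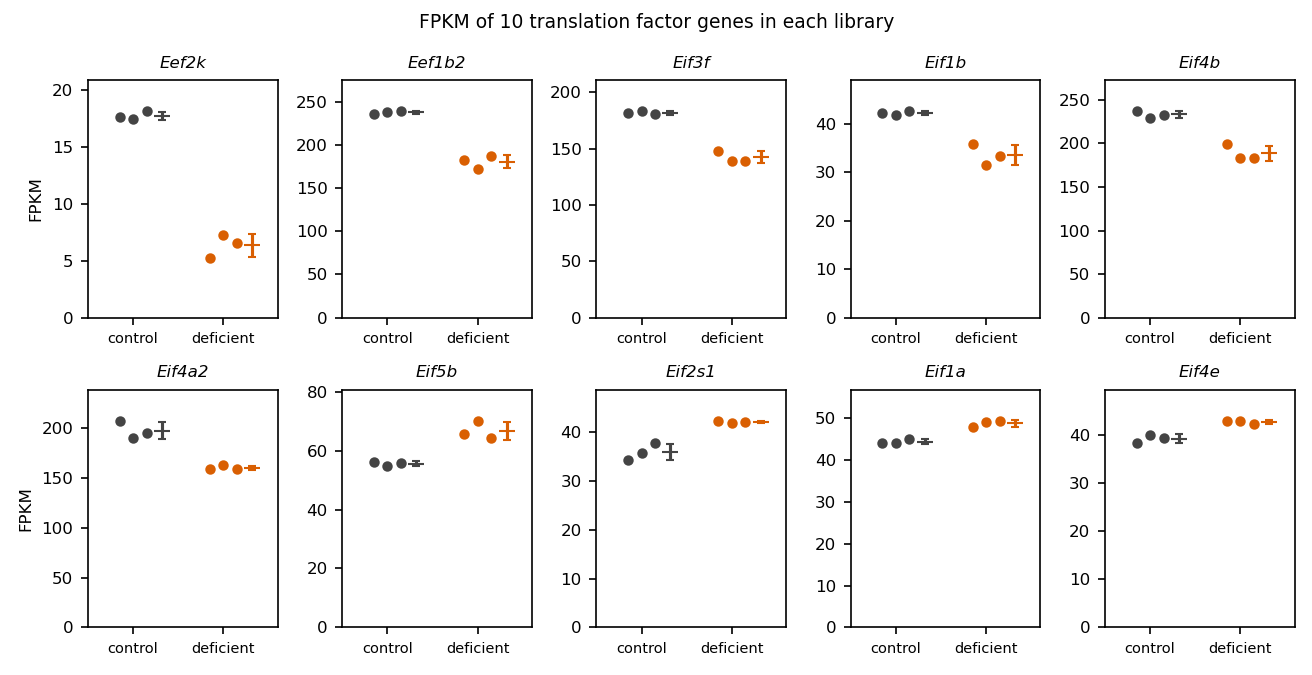
FPKM (y axis, from 0) of 10 translation factor genes in each library, with control libraries dark and CITED2-deficient libraries orange; points are libraries and the bar beside them is the mean ± SD. In all 10 genes the groups do not overlap, with the widest separation for Eef2k (17.5 to 18.1 against 5.28 to 7.24). All 10 are genes that passed the test. Of all genes tested, 19.0% were higher and 40.9% lower without overlap.

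The eIF3 complex, the many-subunit platform that holds the small subunit and recruits mRNA, was lower in part. Of its 13 tested genes, 9 (69.2%) were lower, against 34.6% of all genes tested, and 0 were higher by limma (0 higher at an unadjusted p below 0.05 and 0 by limma-voom), with a median of −0.16. After median-ratio scaling 4 were lower, against 22.0% of all genes, and the median was −0.07, with Eif3c, Eif3d, Eif3g and Eif3j1 just above zero. The 4 were Eif3f, Eif3k, Eif3i and Eif3m. Eif3f (chr7:108934417-108942951, plus strand), a subunit with an MPN domain, had an FPKM of 181, 183 and 180 in control and 148, 140 and 139 in CITED2-deficient libraries. Every CITED2-deficient library was well below the controls, and Eif3f fell by 0.35 (SE 0.03, limma adjusted p = 2.66e-05). Eif3k and Eif3i each fell by 0.28 (adjusted p = 0.000939 and 0.00101), and Eif3m fell by 0.23 (adjusted p = 0.00141).

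The other 5 lower eIF3 genes, Eif3h, Eif3l, Eif3e, Eif3a and Eif3b, were between −0.17 and −0.15, and none of the 5 passed after median-ratio scaling, where they lay between −0.08 and −0.05. The call for Eif3l was also lost without control replicate 2 or CITED2-deficient replicate 3. Eif3c, the large scaffold subunit, was at 160, 164 and 157 in control and 158, 161 and 155 in CITED2-deficient libraries (−0.02, adjusted p = 0.654). Because shares within a library are free of scaling, each subunit was also set against the summed FPKM of the complex. Eif3f was 14.1% to 14.2% of that sum in control and 12.4% to 12.9% in CITED2-deficient libraries, and Eif3i was 4.45% to 4.80% and 4.26% to 4.45%, with a narrow gap. The shares of Eif3k (7.22% to 7.97% and 7.05% to 7.24%) and Eif3m (4.90% to 5.24% and 4.86% to 4.94%) overlapped between the groups. Eif3c was 12.3% to 12.6% of the sum in control and 13.7% to 14.3% in CITED2-deficient libraries, and Eif3d and Eif3g were also higher without overlap. The mRNAs of the complex thus changed unequally. Eif3j2, a copy of Eif3j1, was at 0.372 or lower in every library and was not tested.

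The eIF4 group, which binds the cap and unwinds the leader, held 1 higher and 4 lower genes among 12. These are 8.33% and 33.3%, against 16.7% and 34.6% of all genes tested, so the lower share was close to that of all genes. Eif4b, the cofactor of the helicase, had an FPKM of 237, 230 and 233 in control and 199, 183 and 183 in CITED2-deficient libraries. Eif4a2, the close relative of Eif4a1, was at 208, 190 and 195 in control and 159, 163 and 160 in CITED2-deficient libraries. In both genes the groups were clearly separate, and both fell, Eif4b by 0.31 (limma adjusted p = 0.00014) and Eif4a2 by 0.30 (adjusted p = 0.000139). Eif4g3, a scaffold that holds the cap-binding protein, the helicase and the poly(A)-binding protein, was at 80.2, 75.4 and 79.9 in control and 66.7, 66.7 and 64.2 in CITED2-deficient libraries and fell by 0.25 (adjusted p = 0.000531). Its relative Eif4g1 was at 160, 157 and 162 in control and 165, 167 and 169 in CITED2-deficient libraries and did not pass (0.06, adjusted p = 0.0858), although it was at 0.16 (adjusted p = 0.00197) after median-ratio scaling.

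Eif4e, the cap-binding protein, was at 38.3, 40.0 and 39.4 in control and 42.8, 43.0 and 42.3 in CITED2-deficient libraries. The groups did not overlap, and it rose by 0.12 (SE 0.04, limma adjusted p = 0.0246), a call lost without CITED2-deficient replicate 1 or 2 or control replicate 1 or 3, and in the fit with the replicate number as a block. Eif4a3, the helicase of the exon junction complex, was at 117, 118 and 113 in control and 113, 92.9 and 103 in CITED2-deficient libraries. Its fall (−0.17, limma adjusted p = 0.0405) was lost in 10 alternatives, including those that left out any control library or CITED2-deficient replicate 2 or 3. The cap-binding relatives Eif4e2 (0.01) and Eif4e3 (0.02), the eIF4E transporter Eif4enif1 (−0.04) and the helicase cofactor Eif4h (−0.005) did not pass, and the last 2 were above zero after median-ratio scaling. The libraries of Eif4e2 ran from 36.4 to 40.2 in control and from 37.3 to 39.2 in CITED2-deficient BMDMs, and those of Eif4e3 from 8.37 to 9.45 and from 8.85 to 9.44.

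Factors that scan for the start codon and join the subunits moved in both directions. Eif5b (chr1:37998010-38055579, plus strand), the GTPase of subunit joining, had an FPKM of 56.2, 54.6 and 55.8 in control and 65.8, 70.1 and 64.3 in CITED2-deficient libraries, and rose by 0.26 (SE 0.04, limma adjusted p = 0.000676). Eif1a, which encodes an eIF1A that helps scanning, was at 44.0, 44.2 and 45.1 in control and 47.9, 49.1 and 49.4 in CITED2-deficient libraries and rose by 0.13 (adjusted p = 0.0117). In both genes all CITED2-deficient libraries were above the controls, and both differences were larger after median-ratio scaling (0.35 and 0.23).

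Eif1b and Eif1, which guard the choice of the start codon, fell. Eif1b was at 42.3, 41.8 and 42.7 in control and 35.8, 31.6 and 33.4 in CITED2-deficient libraries and fell by 0.32 (SE 0.05, limma adjusted p = 0.000561). Eif1 was at 324, 326 and 352 in control and 298, 264 and 296 in CITED2-deficient libraries. It fell by 0.22 (adjusted p = 0.00566), but with −0.13 after median-ratio scaling it did not pass (adjusted p = 0.0614). Eif1ax, the X-linked eIF1A gene, was at 18.5, 18.4 and 19.1 in control and 18.9, 16.2 and 17.4 in CITED2-deficient libraries, with groups that overlapped. Eif1ax (−0.09), Eif1ad (−0.07) and Eif5, the GTPase activator of eIF2 (−0.04), did not pass and lay just above zero after median-ratio scaling.

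The 3 subunits of eIF2 did not move together. Eif2s1, which encodes the alpha subunit that the eIF2 kinases phosphorylate, had an FPKM of 34.4, 35.7 and 37.7 in control and 42.3, 41.8 and 42.0 in CITED2-deficient libraries. Eif2s3x, the X-linked gene of the GTP-binding gamma subunit, was at 49.5, 46.4 and 48.4 in control and 41.7, 42.3 and 41.7 in CITED2-deficient libraries. Eif2s1 rose by 0.22 (SE 0.04, limma adjusted p = 0.00231) and Eif2s3x fell by 0.19 (SE 0.04, adjusted p = 0.00254), while Eif2s2, the beta subunit, did not pass (−0.08 and 0.02 after median-ratio scaling). The call for Eif2s3x was lost after median-ratio scaling (−0.10, adjusted p = 0.0568). The ratio of Eif2s1 to Eif2s3x within a library was 69.4%, 76.8% and 77.8% in control and 101.5%, 98.7% and 100.9% in CITED2-deficient libraries. Eif2s3y was not analysed here.

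No gene of eIF2B, the exchange factor of eIF2, passed in either direction, against 51.3% of all genes tested. The 5 genes, Eif2b1 to Eif2b5, were between −0.15 and 0.04, and limma gave 0 of 5 at an unadjusted p below 0.05 and limma-voom 0. Eif2a and Eif2d, which can bring in tRNA without eIF2, did not pass (−0.15 and −0.17), and Eif6, which keeps the subunits apart, did not pass either (0.05) but did after median-ratio scaling (0.15, adjusted p = 0.0381).

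Eif5a, the hypusine-bearing factor that helps ribosomes past stalling sequences, was at 280, 290 and 280 in control and 293, 284 and 295 in CITED2-deficient libraries and did not pass (0.04, but 0.13 and adjusted p = 0.00746 after median-ratio scaling). Eif5a2, its scarce relative, was at 4.65, 4.87 and 4.58 in control and 4.02, 3.80 and 3.83 in CITED2-deficient libraries. Its fall of 0.22 was near the threshold (limma adjusted p = 0.0454) and was lost whichever library was left out.

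The ratios of related genes within a library gave a view that does not depend on scaling between libraries. The size of such a ratio, or of a share of summed FPKM, still depends on the transcript lengths used for the FPKM. Of 13 ratios, 10 did not overlap between the groups, each with an exact two-sided permutation p of 0.1, the smallest that 3 against 3 libraries allow (0.13 after Benjamini-Hochberg adjustment over the 13). Lack of overlap is common for single genes in these data, with 19.0% of all genes tested higher and 40.9% lower without overlap. Those shares are for FPKM, which depend on scaling between libraries, and no such share was computed for ratios. Eif4a2 was 29.5% to 33.1% of Eif4a1 in control libraries and 24.4% to 25.6% in CITED2-deficient libraries. Eif4g3 was 49.2% ± 0.964 of Eif4g1 in control and 39.5% ± 1.28 in CITED2-deficient libraries (SD, n = 3). The share of the less abundant relative was thus lower in each CITED2-deficient library than in any control library in both families.

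The ratios of Eef2k to Eef2 and of Eif2s1 to Eif2s3x, given above, moved further. Eif1a was 236% to 240.0% of Eif1ax in control and 253% to 302% in CITED2-deficient libraries, and Eif5a2 was 1.64% to 1.68% of Eif5a in control and 1.30% to 1.37% in CITED2-deficient libraries. Eif4e was 98.0% to 107% of Eif4e2 in control and 108% to 115% in CITED2-deficient libraries. Eif4a3 to Eif4a1 and Eif1b to Eif1 were also lower without overlap, by 0.20 and 0.11 in mean log2 ratio. Eef1a2 was 0.0164% ± 0.00241 of Eef1a1 in control and 0.0234% ± 0.00105 in CITED2-deficient libraries (SD, n = 3), at a very low level. Eif4g2 to Eif4g1 (exact permutation p = 0.4), Eif4e3 to Eif4e2 (exact permutation p = 0.9) and Eif3j2 to Eif3j1 (exact permutation p = 0.2) overlapped between the groups.

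**Figure D4:**
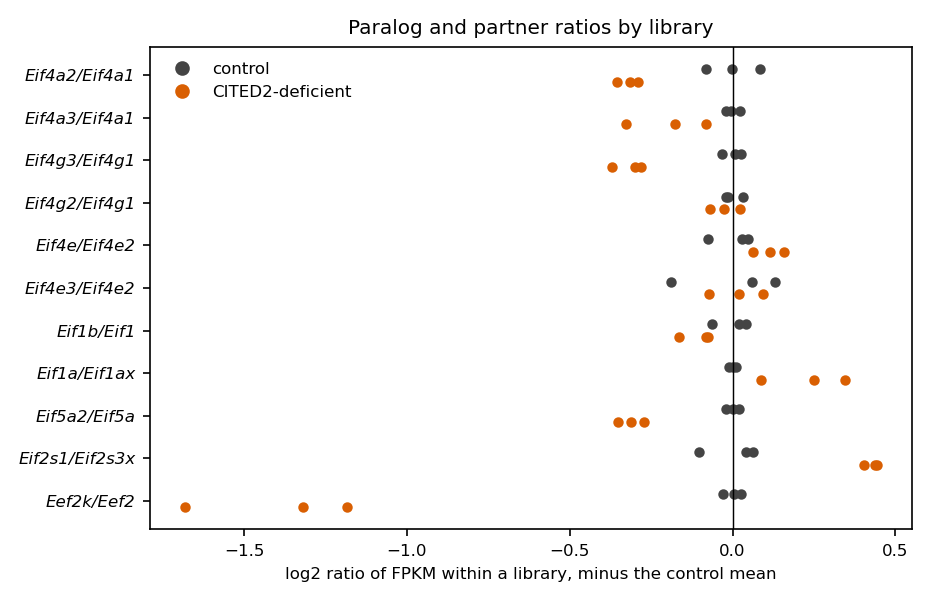
Log2 ratio of the FPKM of related genes within each library, minus the mean of the control libraries (x axis), for 11 of the 13 ratios; dark points are control and orange points CITED2-deficient libraries. Eif4a2 to Eif4a1, Eif4g3 to Eif4g1, Eif5a2 to Eif5a and Eef2k to Eef2 lie to the left of all control points, and Eif2s1 to Eif2s3x lies to the right.

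Of the 9 genes on the TOP list, 8 (88.9%, against 34.6% of all genes tested) were lower (Eef1a1, Eef1b2, Eef1d, Eef2, Eif3e, Eif3f, Eif3h and Eif4b) and 0 were higher by limma (0 higher at an unadjusted p below 0.05 and 0 by limma-voom). The median was −0.17, against −0.10 for all genes tested. After median-ratio scaling 4 were lower, Eef1b2, Eef1d, Eif3f and Eif4b (22.0% of all genes), with a median of −0.08, and Eef1g and Eef2 were slightly above zero. No annotated coding transcript of Eif4b starts with a tract, nor does any of Eef1a1, Eef1g, Eef2, Eif3e or Eif3h.

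Regulators outside the 59 genes were taken from lists of known pathway genes. Among the eIF2 kinases and the phosphatase subunits that oppose them, 2 were higher and 1 lower of 6 (16.7% and 34.6% of all genes tested, here and for the next lists). Eif2ak2, the double-stranded RNA-activated kinase PKR, had an FPKM of 40.4, 39.0 and 41.5 in control and 93.3, 99.0 and 92.7 in CITED2-deficient libraries. It rose by 1.22 (SE 0.04, limma adjusted p = 2.74e-08), a difference close in size to that of Eef2k and in the other direction. Eif2ak3, the endoplasmic reticulum kinase PERK, fell by 0.39 (adjusted p = 0.000843), and Ppp1r15b, the constitutive phosphatase subunit, rose by 0.32 (adjusted p = 0.00018). Eif2ak1 and Eif2ak4, the heme and amino acid sensors, and Ppp1r15a, the stress-induced phosphatase subunit, did not pass (−0.08, −0.19 and 0.12), and Eif2ak1 was at 0.01 after median-ratio scaling.

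Among the regulators of eIF4E and mTORC1, 2 were higher and 4 lower of 10 tested, close to the shares of all genes. Eif4ebp2, which holds eIF4E away from eIF4G, was at 68.2, 67.3 and 68.0 in control and 45.8, 42.1 and 45.1 in CITED2-deficient libraries and fell by 0.60 (limma adjusted p = 2.77e-06). Pdcd4, which blocks eIF4A, fell by 0.52 (adjusted p = 0.00172), and Mknk1, a kinase of eIF4E, fell by 0.27 (adjusted p = 0.000372). Rps6kb2, a ribosomal protein S6 kinase, was near the threshold (−0.21, adjusted p = 0.0474), overlapped between the groups and was lost when control replicate 1, control replicate 2, CITED2-deficient replicate 2 or CITED2-deficient replicate 3 was left out. Rptor, the mTORC1 subunit that binds substrates, rose by 0.35 (adjusted p = 0.000136), and Larp1, which binds the TOP start, rose by 0.22 (adjusted p = 0.00161). Eif4ebp1, a relative of Eif4ebp2, did not pass (0.03, limma adjusted p = 0.672), nor did Mtor (0.06), Rps6kb1 (−0.13) and Mknk2. Eif4ebp3 was not tested.

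Of the 5 genes of poly(A)-binding proteins and their partners, 4 were lower (80.0%, against 34.6% of all genes tested). By limma 0 were higher (0 higher at an unadjusted p below 0.05 and 0 by limma-voom). After median-ratio scaling 3 were lower, against 22.0% of all genes. Pabpc1, the main cytoplasmic poly(A)-binding protein, fell by 0.18 (adjusted p = 0.000865, and 0.0535 after median-ratio scaling). Paip1, its activating partner, fell by 0.25, and Paip2 and Paip2b, its inhibitors, fell by 0.41 and 0.29 (limma adjusted p = 0.000915, 8.08e-05 and 0.00471). Among 8 tested helicases and factors of termination and recycling, 1 was higher and 2 were lower. Ddx3x, an X-linked helicase of structured leaders, was at 434, 422 and 427 in control and 305, 305 and 287 in CITED2-deficient libraries and fell by 0.52 (adjusted p = 1.48e-06). Gspt2, a release factor, fell by 0.85 from a low level (FPKM 2.20 ± 0.152 and 0.783 ± 0.164, SD, n = 3), and Denr, a recycling factor, rose by 0.15 (adjusted p = 0.0398, lost in 7 alternatives, including those that left out CITED2-deficient replicate 1 or 3 or control replicate 1 or 3).

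**Figure D5:**
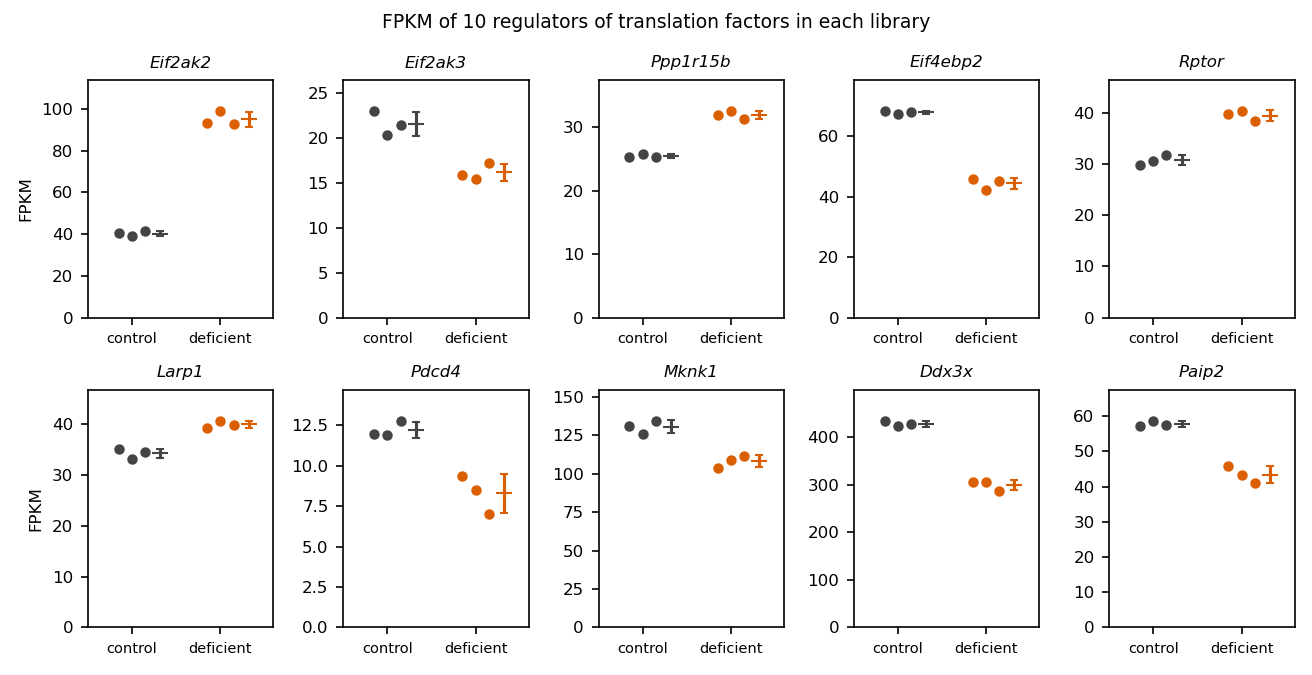
FPKM (y axis, from 0) of 10 regulators of the translation factors in each library, with control libraries dark and CITED2-deficient libraries orange; points are libraries and the bar beside them is the mean ± SD. Eif2ak2 lies at 39.0 to 41.5 in control and 92.7 to 99.0 in CITED2-deficient libraries, and none of the 10 genes overlaps between the groups. All 10 are genes that passed the test, and listed genes that did not pass are not drawn. Of all genes tested, 19.0% were higher and 40.9% lower without overlap.

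For some translation factor genes, reads may not be told apart from those of other genes. By annotated gene span, 10 of the 59 genes overlap another listed gene on the same strand and 17 on the other strand. The counting is not stated to have used strand. Abundant members such as Eef1a1 also have near-identical pseudogene copies, so their values are uncertain where reads could have been split between copies.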

How the data were processed

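RNA from 6 BMDM libraries (3 control, 3 CITED2-deficient, grouped by GEO's titles) was analysed. Per the labels and the methods of the study, the authors removed ribosomal RNA, made stranded libraries, mapped reads to mm10 with STAR and deposited 1 FPKM value per gene and library from Cuffdiff with a GENCODE annotation. Tool versions were not given in the sources used here. FPKM are scaled to length and library size, so strongly changed genes can shift all others. Fragment numbers were recovered with mean transcript lengths of GENCODE vM21 and came out whole to within 0.02 in each of the 6 libraries for 96.1% of 22239 matched genes and for 56 of the 59 translation factors.

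The 11687 genes whose FPKM averaged 1 or more entered limma 3.58.1 (R 4.3.3) as log2(FPKM + 1), with a trend of the variance, and p-values were adjusted over all of them by the Benjamini-Hochberg method. Ratios were compared by exact permutation tests. The limma fit was tested on simulated data that held no difference in scaling between libraries. The study's Cuffdiff test needs alignments and was not repeated. The genes, the lists and the tests were chosen with earlier results of these data known. Values per library are given for the 5 most abundant genes, up to 6 of the largest rises and falls and related gene pairs; genes outside this rule, and the choice of sequences, were picked after their values were seen. Same-numbered libraries of the 2 groups did not deviate together (correlations 0.014, 0.0078 and 0.040), and differently numbered ones were not compared. Whether same-numbered libraries were prepared together is not stated in the sources, and these correlations cannot show it. Alternatives were pseudocounts of 0.1 and 0.5, no filter, a mean FPKM of at least 5, median-ratio scaling, quantile normalization, array weights, no variance trend, leaving out each library, a replicate block, a fold change of at least 1.5 and limma-voom on recovered fragments; taking out trends with GC content and transcript length was chosen after seeing the data.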

Additional observations from a re-analysis of the deposited data

How the results depend on the processing

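Under pseudocounts of 0.1 and 0.5 and a mean FPKM of at least 5, no tested translation factor changed its call or direction. The count of higher genes, 5, was 10 after median-ratio scaling and 10 after removal of the GC and length trends, 0 when limma also required a fold of at least 1.5 (0 at an unadjusted p, and 0 by limma-voom), and 3 to 5 when 1 library was left out, with 3 without control replicate 1, control replicate 3 or CITED2-deficient replicate 1. The count of lower genes, 23, was 12 after median-ratio scaling and 1 with a fold of at least 1.5 (Eef2k), and 20 to 24 when 1 library was left out. Higher genes were 17.9% of the calls, but 45.5% after median-ratio scaling and 37.0% after removal of the GC and length trends. The median of −0.10 was −0.0081 after median-ratio scaling, −0.047 after quantile normalization, −0.11 with limma-voom, −0.046 after removal of the GC and length trends, and −0.12 to −0.087 when 1 library was left out, with −0.12 without CITED2-deficient replicate 1. The fit with a replicate block gave 4 higher and 22 lower; it lost Eif4e and Eif5a2, and the pairing changed no other call among the translation factors.

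After median-ratio scaling 14 translation factors turned from below to above zero, with log2 differences of 0.011 (Eef1g), 0.00035 (Eef2), 0.016 (Eif2s2), 0.054 (Eif2b5), 0.055 (Eif2b4), 0.014 (Eif3j1), 0.030 (Eif3g), 0.033 (Eif3d), 0.078 (Eif3c), 0.054 (Eif4enif1), 0.091 (Eif4h), 0.0051 (Eif1ax), 0.015 (Eif1ad) and 0.058 (Eif5). Eif2ak1 turned to 0.015. After quantile normalization Eif2b5 was at 0.022, Eif2b4 at 0.031, Eif4enif1 at 0.018, Eif4h at 0.032 and Eif1ad at 0.021. After removal of the GC and length trends Eef1g was at 0.0041, Eef2 at 0.0010, Eif2b5 at 0.0098, Eif2b4 at 0.075, Eif3g at 0.059, Eif3d at 0.044, Eif3c at 0.019, Eif4h at 0.032, Eif1ad at 0.015 and Eif5 at 0.0045. When 1 library was left out, Eif2b2 ran from −0.027 to 0.086, Eif4e2 from −0.022 to 0.049, Eif4e3 from −0.029 to 0.050 and Eif4h from −0.043 to 0.018. Apart from Eef2, none of these genes passed before.

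On the lists, lower TOP mRNAs went from 8 to 4 (median-ratio) and 5 (GC and length). Lower eIF2 kinases and phosphatase subunits went from 1 to 2 without a variance trend, with array weights, with limma-voom and after removal of the GC and length trends. Regulators of eIF4E and mTORC1 had 4 higher after median-ratio scaling and 2 lower with limma-voom, which could not test the other 2 lower genes, Pdcd4 and Rps6kb2, since their fragments did not come out whole. Lower mitochondrial factors went from 2 to 1 without a filter, to 0 after median-ratio scaling and 0 after quantile normalization (1 and 2 at an unadjusted p below 0.05; limma-voom gave 2), and to 1 without control replicate 1 or CITED2-deficient replicate 3, with 1 to 2 over the libraries left out. Where the construction of an alternative does not show it, the cause was not tested. With 3 libraries a group, an exact permutation test cannot go below 0.1, and genes below a mean FPKM of 1 were not tested.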

Other observations

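Mitochondria have their own translation factors, taken here as a list of 9 genes. Of these, 2 (22.2%) were lower, against 34.6% of all genes tested, and 0 were higher by limma (0 higher at an unadjusted p below 0.05 and 0 by limma-voom), with a median of −0.12. Mtif2, the initiation factor that brings the formyl-methionyl tRNA to the mitochondrial ribosome, had an FPKM of 20.3, 20.5 and 20.3 in control and 17.5, 18.6 and 17.2 in CITED2-deficient libraries and fell by 0.19 (limma adjusted p = 0.0116). Mrrf, the recycling factor, fell by 0.28 (adjusted p = 0.0212), from 6.16, 5.72 and 5.43 to 4.80, 4.68 and 4.31. Neither passed after median-ratio scaling (adjusted p = 0.163 and 0.0834), and Mrrf was lost without control replicate 1 or CITED2-deficient replicate 3. The elongation factors Tufm, Tsfm, Gfm1 and Gfm2 did not pass.

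The enzymes that make hypusine on eIF5A and diphthamide on eEF2 gave 3 lower (37.5%, close to the 34.6% of all genes tested) and 0 higher of 8 genes (0 higher at an unadjusted p below 0.05 by limma and 0 by limma-voom). Dohh, which completes hypusine, had an FPKM of 12.3 ± 1.28 in control and 9.23 ± 0.900 in CITED2-deficient libraries (SD, n = 3) and fell by 0.38 (limma adjusted p = 0.00764). Dhps, which starts hypusine, fell by 0.19 (adjusted p = 0.00995, and 0.138 after median-ratio scaling). Dph7, which acts late in the making of diphthamide, fell by 0.41 (adjusted p = 0.00674), from 8.90, 9.63 and 7.53 to 6.03, 5.97 and 6.85. In each of the 3 genes the groups did not overlap. The other 5, Dph1, Dph2, Dph3, Dph5 and Dph6, did not pass, although Dph3 was also lower without overlap. Of all genes tested, 40.9% were lower without overlap.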
